A study of Mus musculus with 16 samples.

Results

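The mitochondrial respiratory chain subunits are the nuclear-encoded proteins of complexes I to IV. Members were all genes whose symbol begins with Ndufa, Ndufb, Ndufc, Ndufs or Ndufv and a digit, is one of Sdha to Sdhd, is Cyc1, or begins with Uqcr or with Cox4 to Cox8; assembly factors named Ndufaf were left out. Of 22180 genes read from a probe set with 1 gene symbol, 63 were members, with 33 in complex I, 4 in complex II, 9 in complex III and 17 in complex IV, and 59 passed the filter on low values. The 4 that did not were Cox7b2, Cox8b and Cox8c, isoforms known from testis or muscle, and Uqcrh-ps1, a pseudogene.

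The arrays held RNA of 5 groups of cells from the small intestine of C57BL/6 mice killed at 8 to 10 weeks of age and all labelled male. Wild-type myofibroblasts, the contractile stromal cells that lay down matrix around the crypts, were grown under indirect co-culture with epithelium (n = 3) or in monoculture (n = 3, from the same animals). Adenoma cells came from 4 Apc+/1638N mice, which carry a truncating mutation in a single copy of the Wnt pathway inhibitor Apc, and their labels name no culture condition. Wild-type crypt epithelium was grown as organoids under indirect co-culture with myofibroblasts (n = 2) or in monoculture (n = 2, from the same animals). Co-cultured cells were kept apart by an insert with 0.4 µm pores for 24 h. Levels are log2 probe set values, and a difference of log2 levels is given ± SE. A member was called, and is said to have risen or fallen, where the adjusted p of limma over 18095 genes was under 0.05.

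Complexes I to IV sit in the inner mitochondrial membrane and pass electrons to oxygen. Complex I takes them from NADH and complex II from succinate, complex III hands them to cytochrome c, and complex IV reduces oxygen. The chain pumps protons that drive ATP synthase. In the intestine, mitochondrial respiration is known to increase as crypt cells differentiate, and intestinal tumours are known to rely more on glycolysis.

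The labelled cell types carried their markers. The 10 epithelial markers averaged between 9.69 and 11.41 in adenoma and epithelium samples and at most 3.75 in fibroblast samples, and the 10 fibroblast markers averaged at least 10.53 in fibroblast samples and at most 3.74 elsewhere. Fibroblast samples also carried immune cell markers (10 genes, averages of 8.92 to 9.37, against 3.90 to 4.23 elsewhere) and smooth muscle markers (5 genes, 8.76 to 9.64, against 3.69 to 4.46). The muscle marker Des lay far below that average, at 3.92 to 5.56 in fibroblast samples and at most 3.87 elsewhere. Both cultures of epithelial animal P28 and of fibroblast animal Pl_III went against the male label: Xist, which coats an inactive X chromosome, was at 7.57 to 8.29 there and at most 2.81 in the other samples, and Eif2s3y, on the Y chromosome, was at most 3.20 there and at least 7.37 in the others. For several comparisons the count of members called is also given without these animals. Counts by non-overlap, sign, complex and gene list are given only with them. The tumour pair P34 and P36 had the epithelial marker Cldn3 at 4.15 and 4.26, against 11.40 and 11.28 in P21 and P23. The median of an array was 3.48 to 3.58. Precision is limited by how few samples a group holds.

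The level of the whole chain differed between the groups. Averaged over the 59 members, it was 7.79, 7.79 and 7.72 in co-cultured fibroblasts, 7.70, 7.70 and 7.67 in monocultured fibroblasts, 8.09, 8.00, 8.03 and 8.01 in adenoma, 8.26 and 8.29 in co-cultured epithelium, and 8.58 and 8.55 in monocultured epithelium. Monocultured epithelium was highest and fibroblasts lowest, and no sample of one of these 3 epithelial groups reached into the next. All 4 complexes kept that order of group means. In complex IV the step from co-cultured epithelium to adenoma rested largely on Cox7a1. Without Cox7a1, the other 13 members averaged 7.83 ± 0.11 (SD, n = 2) in co-cultured epithelium and 7.78 ± 0.07 (SD, n = 4) in adenoma, and the samples overlapped. Complex II averaged 9.33 ± 0.22 (SD, n = 4) in adenoma and 10.31 ± 0.03 (SD, n = 2) in monocultured epithelium, and complex III averaged 8.59 ± 0.06 and 9.21 ± 0.00 in the same groups. In bulk samples, fewer cells of a type and less RNA per cell cannot be told apart.

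**Figure D1:**
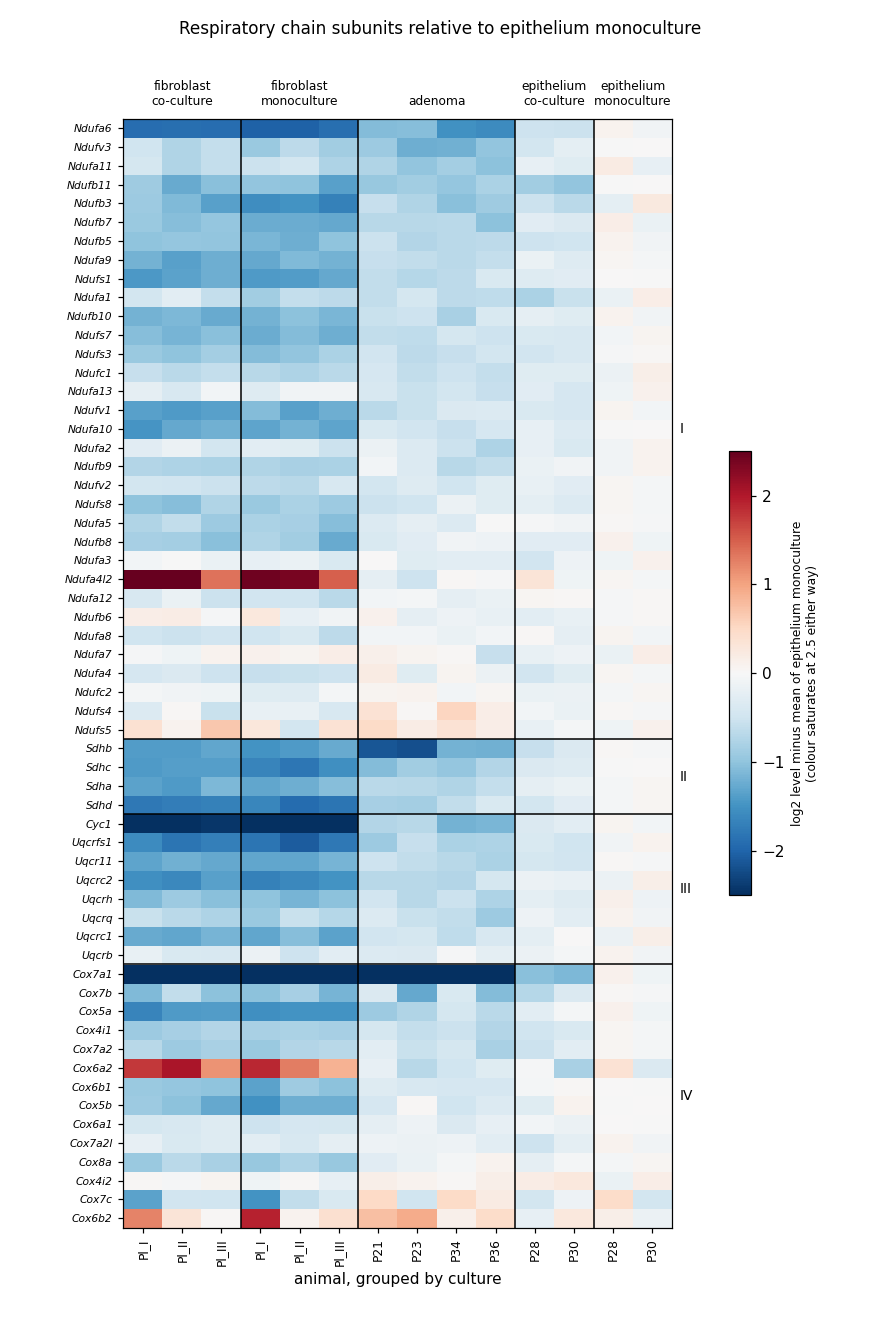
Log2 level of each of the 59 members (rows, grouped by complex I to IV) in each of the 14 samples (columns, labelled by animal) minus the mean of epithelium monoculture. Blue is lower and red higher; Cox7a1 is far below the colour range in fibroblasts and adenoma, and Ndufa4l2 and Cox6a2 are red in fibroblasts.

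Adenoma was compared with wild-type epithelium to ask how the tumour samples differ. Genotype, tumour state and animals differ together between these groups, and culture may differ too. They cannot be told apart here. Against epithelium monoculture, 0 members rose and 37 of 59 fell, with a background over all genes of 41.0% called, 22.5% higher and 18.5% lower. The differences were negative for 53 members, with a median of -0.50, against -0.03 over all genes tested. By complex, 20 of 33 members of complex I, 4 of 4 of complex II, 7 of 8 of complex III and 6 of 14 of complex IV fell. All samples of adenoma lay below all samples of epithelium monoculture for 41 of the 59 members (69.5%), against 27.7% of all genes, and above them for 2 (3.39%), against 28.7%.

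Markers of cell types also differed between these groups. The 10 epithelial markers averaged 9.69 to 10.93 in adenoma and 11.03 and 11.10 in epithelium monoculture, with 1 higher (Krt18, 0.59) and 2 lower. The 2 lower were Vil1 and Cdx2, of the enterocyte brush border and the intestinal fate, which differed by -1.46 and -1.72. The 10 immune cell markers averaged 3.90 to 4.23 in adenoma and 4.16 and 4.04 in monoculture. Of these, 2 were higher (Cd68, 2.35, and Cd14, 1.76) and 2 lower (Itgam, -2.05, and Adgre1, -0.58). Differences were negative for 7 of the 10. The 10 fibroblast markers averaged 3.31 to 3.74 in adenoma and 3.61 and 3.53 in monoculture, with Acta2 higher (1.19) and Pdgfrb lower (-0.95). The 5 muscle markers averaged 3.96 to 4.46 in adenoma and 4.07 and 3.69 in monoculture, with Smtn higher (0.89). The part of these markers in the result was not tested.

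Complex II, which oxidises succinate and is also an enzyme of the TCA cycle, fell in all its subunits. Sdhb, the iron-sulphur subunit, was at 7.45, 7.40, 8.42 and 8.40 in adenoma animals P21, P23, P34 and P36, and at 9.63 and 9.56 in epithelium monoculture. The groups did not overlap, and P21 and P23 lay lowest. The difference was -1.68 ± 0.27 (adjusted p = 0.00033), a 3.2-fold lower level. Sdhc, which anchors the complex in the membrane, was at 8.63, 8.83, 8.73 and 8.98 in adenoma and at 9.69 and 9.72 in epithelium monoculture. It fell by 0.91 on the log2 scale (SE 0.12, adjusted p = 7.5e-05). The other anchor Sdhd fell by 0.67 and Sdha, the flavoprotein that binds succinate, by 0.68, with all adenoma samples below all monocultures for both.

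**Figure D2:**
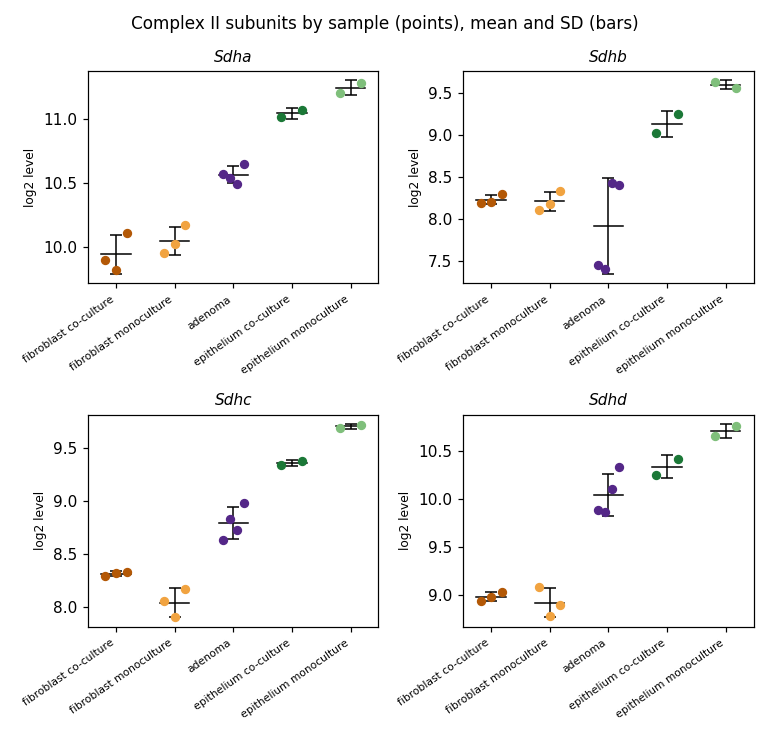
Log2 level of the 4 complex II subunits (panels, each with its own vertical axis) in each sample (points) by group, with mean and SD. Adenoma lies below both epithelial groups for 3 of the subunits, and Sdhb splits the tumours into a pair near 7.4 and a pair near 8.4.

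In complex I the fall was spread over core and accessory subunits. Ndufa6, an accessory subunit of the matrix arm, was at 8.85, 8.87, 8.42 and 8.36 in adenoma and at 10.03 and 9.85 in epithelium monoculture. It fell by 1.32 on the log2 scale (SE 0.16, adjusted p = 2.7e-05). Ndufv3, a small accessory subunit of the NADH-oxidising module, was at 6.57, 6.25, 6.27 and 6.48 in adenoma and at 7.46 and 7.48 in epithelium monoculture, a difference of -1.08 ± 0.14 (adjusted p = 5e-05). For both genes every tumour lay below both monocultures. Ndufa11 and Ndufb11, accessory subunits of the membrane arm, differed by -0.91 ± 0.15 and -0.90 ± 0.14. The 6 measured core subunits of the peripheral arm all fell: Ndufs1 by 0.60, Ndufs7 by 0.55, Ndufs3 by 0.54, Ndufv1 by 0.47, Ndufv2 by 0.40 and Ndufs8 by 0.37 on the log2 scale. The calls of Ndufv1, Ndufv2 and Ndufs8 were lost without the monoculture of P28 (adjusted p = 0.0989, 0.127 and 0.224), and that of Ndufs8 also without the monoculture of P30 (adjusted p = 0.1) or without tumour P21, P23 or P36 (adjusted p = 0.102, 0.0972 and 0.0556). Among members that were not called, Ndufs4 and Ndufs5 had positive differences of 0.27 ± 0.18 and 0.30 ± 0.23. That of Ndufs5 came from a dim probe set, and a brighter probe set shared with its pseudogene went the opposite way.

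In complex III, Cyc1, the cytochrome that passes electrons to cytochrome c, was at 9.54, 9.58, 9.09 and 9.14 in adenoma and at 10.34 and 10.21 in epithelium monoculture. All tumours lay below both monocultures, and the difference was -0.94 ± 0.15 (adjusted p = 0.00034). Uqcrfs1, the Rieske iron-sulphur protein, fell by 0.76, and the core proteins Uqcrc2 and Uqcrc1 by 0.64 and 0.49 on the log2 scale, the last with an adjusted p of 0.131 without the monoculture of P30. Uqcrb, a small subunit, was the member of complex III that was not called (-0.25 ± 0.14).

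Complex IV held the largest difference of the chain. Cox7a1, the isoform of subunit 7a known from heart and skeletal muscle, was at 3.50, 3.61, 3.67 and 3.38 in adenoma and at 8.50 and 8.30 in epithelium monoculture. The tumours lay at about the median of all probe sets on their arrays, where log2 values of this kind are compressed, and the epithelium lay far above it. The difference was -4.86 ± 0.13 (adjusted p = 1.7e-10). Its partner Cox7a2, the isoform of most tissues, was at 9.35, 9.06, 9.17 and 8.80 in adenoma and at 9.66 and 9.56 in epithelium monoculture. It differed by -0.51 ± 0.15 (adjusted p = 0.0185), a call lost when either epithelial monoculture was left out (adjusted p = 0.122 without P28 and 0.0588 without P30). Without Cox7a1, the other 13 members of complex IV averaged 7.78 ± 0.07 (SD, n = 4) in adenoma and 8.04 ± 0.12 (SD, n = 2) in epithelium monoculture.

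The remaining subunits of complex IV moved less. Cox5a, Cox4i1 and Cox6b1, from the structural shell of the complex, fell by 0.69, 0.58 and 0.40 on the log2 scale. The Cox6b1 call was lost without the monoculture of P28 or of P30 (adjusted p = 0.107 and 0.0936), and that of Cox5a without P28 and Pl_III (adjusted p = 0.0647). Cox7b, another small subunit, fell by 0.78, and its dimmer probe set differed by -0.08. Cox5b, Cox6a1, Cox8a and Cox7a2l, a factor of supercomplexes, were not called, at -0.31 ± 0.18, -0.23 ± 0.10, -0.10 ± 0.13 and -0.17 ± 0.12. The dimmer probe set of Cox5b differed by -1.12, and the mean of its probe sets was called (-0.71, adjusted p = 0.00581). The tissue-restricted isoforms Cox4i2, Cox6a2 and Cox6b2 were dim in adenoma (means of 3.22, 3.55 and 3.49) and not called. Ndufa4, counted with complex I by its symbol and now placed in complex IV, was also not called (-0.05 ± 0.14, with a 95% interval of -0.36 to 0.26).

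**Figure D3:**
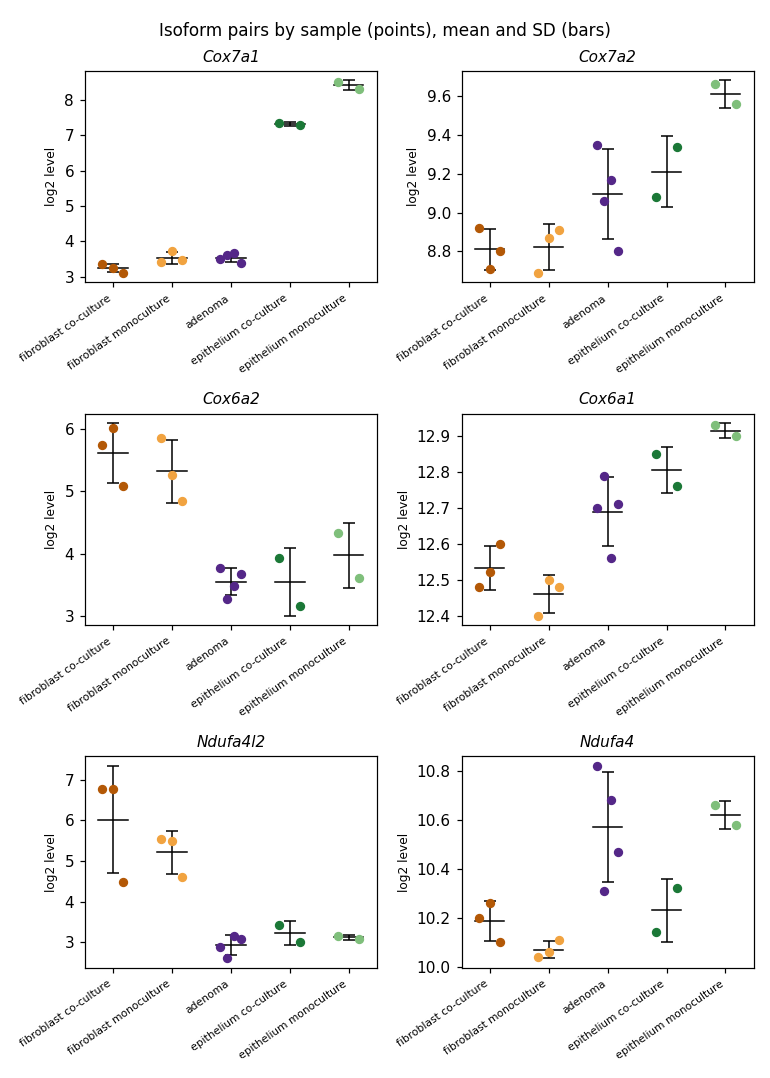
Log2 level of 3 pairs of isoforms (panels, each with its own vertical axis) in each sample (points) by group, with mean and SD. Cox7a1 is high in both epithelial groups alone, and Cox6a2 and Ndufa4l2 are high in both fibroblast groups.

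Fewer members passed the threshold against co-cultured epithelium, where 0 rose and 13 fell in adenoma (background 33.3% called, 19.0% higher and 14.3% lower), with 45 of 59 differences negative and a median of -0.17, against 0.01 over all genes. Adenoma is the same in both comparisons, so they are not independent. All adenoma samples lay below both co-cultures for 27 members (45.8%), against 23.6% of all genes, and above them for 3 (5.08%), against 27.5%. The largest differences were those of Cox7a1 (-3.77 ± 0.13, adjusted p = 2.4e-09), Sdhb (-1.22 ± 0.27, adjusted p = 0.00435), Ndufa6 (-0.79 ± 0.16, adjusted p = 0.00188), Ndufv3 (-0.72 ± 0.14) and Ndufa11 (-0.65 ± 0.15). Cyc1, Sdhc, Cox5a, Uqcrc2, Sdha, Ndufb7, Cox6b1 and Ndufa9 also fell, by 0.36 to 0.63 on the log2 scale. Without animals P28 and Pl_III, which leaves a single epithelial sample per culture, the calls were 25 in place of 37 against monoculture and 5 in place of 13 against co-culture, while 5726 in place of 7422 and 3984 in place of 6022 of all genes were called. The 5 were Cox7a1, Ndufa6, Ndufv3, Sdha and Sdhc. The count against co-culture was also 8 without the P28 co-culture and 7 without the P30 co-culture, and 21 after cyclic loess normalisation, where 21.4%, 24.5% and 32.3% of all genes were called.

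The 2 pairs of tumours differed in Sdhb of complex II. The titles of P21 and P23 carry the tag T2, which the labels do not explain. Sdhb was lower in these than in P34 and P36 by 0.99 on the log2 scale (SE 0.13, adjusted p = 5.7e-04), with no overlap, and it stayed called in each of the alternatives tried. The other subunits of complex II, Sdha, Sdhc and Sdhd, were not called, at -0.02 (adjusted p = 0.99), -0.12 (adjusted p = 0.845) and -0.35 (adjusted p = 0.234). Ndufa6 was higher in P21 and P23 (0.47 ± 0.12, adjusted p = 0.0343), a call lost when any of the 4 tumours was left out (adjusted p = 0.115 to 0.197). These were 1 higher and 1 lower member of 59, against a background of 7.14% called, 3.65% higher and 3.49% lower. Over all members the median difference was 0.04.

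Other mitochondrial gene lists give the setting of the adenoma result. Over all genes, 22.5% were higher and 18.5% lower in adenoma than in epithelium monoculture, and 19.0% and 14.3% against co-culture. ATP synthase, which uses the proton gradient, had 0 members higher and 8 of 18 lower in adenoma than in epithelium monoculture, such as Atp5d (-0.66 ± 0.16) and Atp5g3 (-0.55 ± 0.12). The TCA cycle had 0 higher and 9 of 16 lower, among them Suclg1 (-1.21 ± 0.15), Sucla2 (-1.12 ± 0.13) and Ogdh (-1.09 ± 0.14). Genes that feed electrons into the chain or make its carriers had 2 higher and 9 of 19 lower; Coq8a, needed to make coenzyme Q, differed by -2.94 ± 0.17 and Etfdh, which passes electrons from fatty acid oxidation, by -1.49 ± 0.13. Against co-cultured epithelium, ATP synthase had 0 of 18 called, with 9 differences positive, 9 negative and a median of -0.05. The TCA cycle had 0 of 16 higher and 6 lower there, and electron entry and carriers 2 of 19 higher and 8 lower.

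Lists concerned with making mitochondria had calls in both directions, as all genes did (22.5% higher and 18.5% lower). The mitochondrial ribosome had 26 of 71 members higher (36.6%) and 6 lower (8.45%), with a median of 0.27. Mrpl19 (1.23 ± 0.15), Mrpl38 (1.15 ± 0.17) and Mrpl11 (0.92 ± 0.12) were among the higher. Assembly factors of the chain had 13 of 49 higher (26.5%) and 10 lower (20.4%), shares near those of all genes, with Ndufaf4, a complex I assembly factor, at 1.19 ± 0.16 and Cox16, a complex IV assembly factor, at -1.19 ± 0.15. Import and carrier proteins had 6 of 19 higher (31.6%) and 3 lower (15.8%). Among regulators of mitochondrial biogenesis, 8 of 20 were higher and 7 lower, larger shares than those of all genes in both directions. Against co-culture, 19.0% of all genes were higher and 14.3% lower. The ribosome had 29 of 71 higher (40.8%) and 3 lower (4.23%) there. Assembly factors had 8 of 49 higher (16.3%) and 6 lower (12.2%), shares a little below those of all genes. Import and carriers had 6 of 19 higher and 2 lower. Regulators had 8 of 20 higher and 3 lower, and their lower share was near that of all genes. The coactivator Ppargc1a averaged 5.09 in adenoma and 8.28 in epithelium monoculture (-3.19 ± 0.34, adjusted p = 1.2e-05), and the nuclear receptor Ppara averaged 3.53 and 8.93 (-5.40 ± 0.19, adjusted p = 1.2e-09). The coactivator Pprc1 was higher by 2.37 ± 0.15 and the transcription factor Myc by 3.01 ± 0.30.

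**Figure D4:**
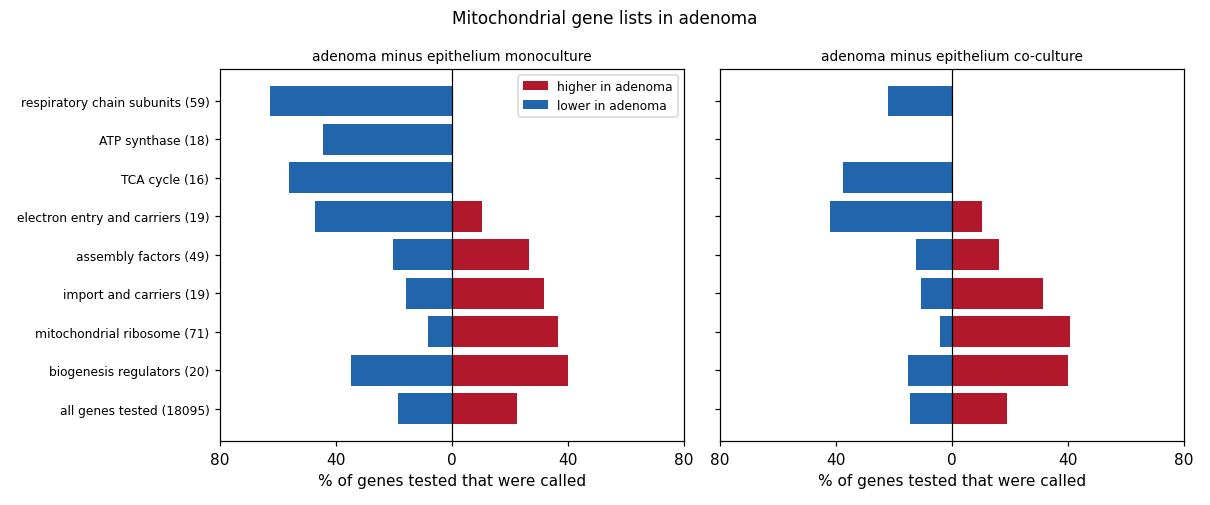
Percent of the genes tested in each mitochondrial list (rows, number tested in brackets) that were called higher (red, to the right) or lower (blue, to the left) in adenoma than in epithelium monoculture (left panel) and co-culture (right panel). The subunits, ATP synthase and the TCA cycle have no red bar, and the mitochondrial ribosome is mostly red.

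Promoters are shown for the members these results turn on: Cox7a1 and Sdhb with the largest differences, Ndufa6 with the largest in complex I, and Sdhd, which holds all 3 motifs searched. Each is 300 bases around the annotated start of the gene, from RefSeq on GRCm38.p6, read 5′ to 3′ on the gene's strand with motif matches in capitals: Cox7a1 at chr7:30183921-30184220 (+), Sdhb at chr4:140961021-140961320 (+), Sdhd at chr9:50603800-50604099 (-) and Ndufa6 at chr15:82354242-82354541 (-).
Cox7a1: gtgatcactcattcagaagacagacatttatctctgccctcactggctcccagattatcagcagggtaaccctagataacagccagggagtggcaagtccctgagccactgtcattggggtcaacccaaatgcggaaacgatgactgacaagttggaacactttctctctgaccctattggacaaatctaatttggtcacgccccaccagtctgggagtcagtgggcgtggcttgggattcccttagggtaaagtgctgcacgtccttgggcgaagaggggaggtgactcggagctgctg
Sdhb: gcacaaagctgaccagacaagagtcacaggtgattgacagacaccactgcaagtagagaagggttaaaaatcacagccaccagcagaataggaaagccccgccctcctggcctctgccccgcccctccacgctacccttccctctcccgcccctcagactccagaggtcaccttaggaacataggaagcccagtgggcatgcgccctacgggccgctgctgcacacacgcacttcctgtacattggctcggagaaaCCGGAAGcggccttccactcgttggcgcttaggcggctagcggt
Sdhd: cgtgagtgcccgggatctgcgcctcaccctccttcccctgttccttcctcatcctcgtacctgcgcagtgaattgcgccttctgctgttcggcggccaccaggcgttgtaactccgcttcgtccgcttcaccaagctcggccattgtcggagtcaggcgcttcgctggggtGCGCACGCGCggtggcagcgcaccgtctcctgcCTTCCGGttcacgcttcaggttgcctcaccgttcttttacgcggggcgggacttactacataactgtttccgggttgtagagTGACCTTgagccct
Ndufa6: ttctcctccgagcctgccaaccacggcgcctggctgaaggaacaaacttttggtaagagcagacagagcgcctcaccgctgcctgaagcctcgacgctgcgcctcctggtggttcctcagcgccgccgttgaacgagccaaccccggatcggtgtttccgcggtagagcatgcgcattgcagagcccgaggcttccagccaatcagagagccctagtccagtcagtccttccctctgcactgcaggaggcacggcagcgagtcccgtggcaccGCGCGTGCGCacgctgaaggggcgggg
The motifs, searched on both strands, were that of NRF1, a regulator of respiratory genes (GCGCANGCGC), the core bound by Ets factors such as GABP (CCGGAAG) and the half-site of estrogen-related receptors (AAGGTCA). Promoters were found for 49 of the 63 members. The NRF1 motif was in 9 of these (18.4%) and in 5.19% of 27025 genes, the Ets core in 11 (22.4%) and in 9.93%, and the receptor half-site in 2 (4.08%) and in 5.38%. Members with the NRF1 motif were Cox6a1, Ndufa5, Ndufa6, Ndufa8, Ndufa11, Ndufs5, Sdha, Sdhd and Uqcrc1, which include called and uncalled members. The Cox7a1 window held none of these letters, which says nothing of other sites.

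Epithelial co-culture and monoculture were compared to ask how soluble signals of myofibroblasts change organoids. The subunits were a little lower in co-culture: 55 of 59 differences were negative (93.2%), with a median of -0.29. Over all genes 52.3% were negative, with a median of -0.02. Past the threshold 0 members rose and 4 fell, with a background of 4.03% called, 2.71% higher and 1.32% lower. Both co-cultures lay below both monocultures for 43 members (72.9%), against 26.8% of all genes, and above them for 1 (1.69%), against 25.5%. Within animal P28, 55 members were lower in co-culture, with a median difference of -0.31, and within P30, 52 were lower, with a median of -0.23. In both animals 49 were lower. These within-animal counts were made for members only, so no share over all genes stands beside them.

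Cox7a1 was at 7.35 and 7.28 in co-culture and at 8.50 and 8.30 in monoculture of P28 and P30. Its difference of -1.09 ± 0.15 (adjusted p = 0.00315) is a 2.13-fold lower level. Ndufb11 was at 4.95 and 4.83 in co-culture and at 5.80 and 5.82 in monoculture, a difference of -0.92 ± 0.16 (adjusted p = 0.00944). For both genes the co-cultures lay below the monocultures in each animal. Ndufa1, a small membrane subunit of complex I encoded on the X chromosome like Ndufb11, was at 7.61 and 7.86 in co-culture and at 8.25 and 8.57 in monoculture (-0.67 ± 0.17, adjusted p = 0.0499). Ndufb5, of the membrane arm, was at 7.86 and 7.89 in co-culture and at 8.46 and 8.30 in monoculture (-0.50 ± 0.13, adjusted p = 0.0479).

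These calls rest on few samples. Without animals P28 and Pl_III, and likewise in a fit of the 2 groups alone, 0 members were called, and of all genes 0.376% and 0%, with Cox7a1 at -1.02 (adjusted p = 0.137) and at -1.09 (adjusted p = 0.0622). Leaving out single samples left Cox7a1 called in all 4 cases, Ndufb11 in 1, with the P28 co-culture left out, and Ndufa1 and Ndufb5 in 0. With the animal as a replicate block, Ndufb5 was not called (adjusted p = 0.0671) and Ndufa6 was (-0.52, adjusted p = 0.0487), with 10.6% of all genes called.

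The rest of the chain had differences under the threshold. Complex II had differences of -0.46 to -0.20 and complex III of -0.46 to -0.10, with 0 of 4 and 0 of 8 called. Over all genes 4.03% were called (2.71% higher and 1.32% lower), and 52.3% of differences were negative. Core subunits such as Ndufs3 (-0.44 ± 0.13, adjusted p = 0.0988) and isoforms such as Cox4i1 (-0.44 ± 0.13, adjusted p = 0.0923) and Cox7a2 (-0.40 ± 0.18) were not called. ATP synthase had 18 of 18 differences negative and 0 called, with a median of -0.27, and the TCA cycle 15 of 16 negative and 0 called. Of the 20 biogenesis regulators, 2 fell and 1 rose in co-cultured epithelium. Ppargc1a (-1.70 ± 0.39, adjusted p = 0.0341) and Ppara (-0.90 ± 0.21, adjusted p = 0.039) fell and Myc rose (1.80 ± 0.35, adjusted p = 0.0158). Coq8a fell by 1.34 on the log2 scale (SE 0.20, adjusted p = 0.004). In a fit of the 2 groups alone 0 of all genes were called, so these calls were lost there too.

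**Figure D5:**
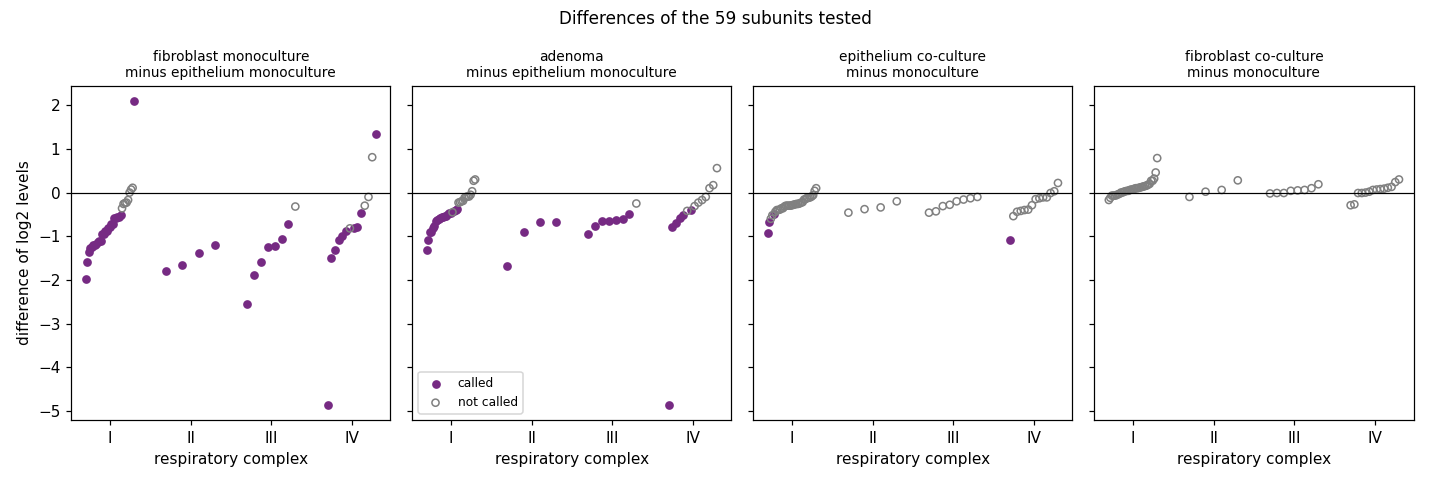
Difference of log2 levels (vertical axis) of each of the 59 members, by complex (horizontal axis, members sorted within a complex), in 4 comparisons (panels). Filled points were called. Most points lie below 0 in the first 3 panels, Cox7a1 is the lowest in all of these, and the fibroblast co-culture panel is centred near 0.

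Fibroblasts were compared in the same way with epithelium as their partner. Here 0 members rose and 0 fell by limma, where a single gene of all those tested fell (background 0.00553% lower), and 3 members had an unadjusted p under 0.05, counts that were also 0 and 3 without P28 and Pl_III. The median difference was 0.06, with 41 of 59 positive. Groups did not overlap for 5 members upward (8.47%, against 3.54% of all genes) and for 2 downward (3.39%, against 3.44%). The 3 members were Ndufb3, a membrane arm subunit of complex I (0.46 ± 0.16), Sdhc (0.28 ± 0.12) and Cox7a1 (-0.29 ± 0.13), each with an adjusted p of 1.

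Ndufa4l2, a paralogue of Ndufa4 known to be induced by hypoxia, was at 6.77, 6.78 and 4.49 in co-culture and at 5.55, 5.49 and 4.61 in monoculture of fibroblast animals Pl_I, Pl_II and Pl_III. It was higher in co-culture by 1.23 and 1.28 in Pl_I and Pl_II and lower by 0.13 in Pl_III, the animal whose Xist goes against its label and whose Pdgfra was at 7.63 in co-culture and at 7.70 in monoculture, against at least 11.06 in the other fibroblast samples. Over the 3 animals the difference was 0.79 ± 0.50, with a 95% interval of -0.30 to 1.89, and it was not called.

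The responses of epithelium and fibroblasts to co-culture were compared as a difference of differences. Of 59 members, 57 had a more negative response in epithelium, with a median of -0.34, against -0.03 over all genes. Past the threshold there were 0 members by limma in either direction (background 1.11% called, 0.834% higher and 0.271% lower), and 17 had an unadjusted p under 0.05. Without animals P28 and Pl_III, 0 members and 5 genes were called, in place of 200 genes, and 9 members had an unadjusted p under 0.05. Ndufb11 came closest (-0.98 ± 0.21, adjusted p = 0.0508), followed by Ndufa1 (-0.94 ± 0.22, adjusted p = 0.0726), Ndufb3 (-1.06 ± 0.26, adjusted p = 0.0889) and Cox7a1 (-0.80 ± 0.20, adjusted p = 0.0918). With the animal as a replicate block, Ndufa1 was called (-0.94, adjusted p = 0.0409). With a trended robust prior it was called too (adjusted p = 0.0485).

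Monocultured fibroblasts were set against monocultured epithelium to place the chain in both cell types. There, 2 members were higher and 44 of 59 lower in fibroblasts (background 50.7% called, 26.5% higher and 24.2% lower), with a median of -0.88, against -0.02 over all genes. All fibroblast samples lay below both epithelial samples for 50 members (84.7%), against 33.2% of all genes. By complex, 24 of 33, 4 of 4, 7 of 8 and 9 of 14 were lower in complexes I, II, III and IV. The immune and muscle markers in the fibroblast samples move with this comparison, and their part in it was not tested. Without animals P28 and Pl_III, 2 members were higher and 38 lower, with 41.5% of all genes called.

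Cox7a1 was at 3.41, 3.73 and 3.48 in monocultured fibroblasts, against 8.50 and 8.30 in epithelium (-4.86 ± 0.14, adjusted p = 8.1e-11), in samples that carried smooth muscle markers. Cyc1 was at 7.63, 7.79 and 7.73 in fibroblasts and at 10.34 and 10.21 in epithelium (-2.56 ± 0.16, adjusted p = 6.4e-08), a 5.9-fold lower level. Neither gene overlapped between the cell types. Ndufa6, Uqcrfs1, Sdhd, Sdhc, Uqcrc2 and Ndufb3 followed, with differences of -1.97 to -1.58. All 4 subunits of complex II were lower in fibroblasts: Sdhd by 1.80, Sdhc by 1.66, Sdhb by 1.39 and Sdha by 1.20 on the log2 scale.

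A pair of isoforms went the other way. Ndufa4l2 was at 5.55, 5.49 and 4.61 in monocultured fibroblasts and at 3.17 and 3.08 in epithelium, a difference of 2.09 ± 0.56 (adjusted p = 0.00791), while its partner Ndufa4 fell (-0.55 ± 0.15, adjusted p = 0.00825). Cox6a2, the isoform of subunit 6a known from heart and skeletal muscle, was at 5.85, 5.26 and 4.85 in fibroblasts and at 4.34 and 3.61 in epithelium (1.34 ± 0.36, adjusted p = 0.00729), while Cox6a1 fell (-0.46 ± 0.11, adjusted p = 0.00388). The groups did not overlap for any of these 4 genes. The Cox6a2 call was lost without epithelial animal P30 (0.98, adjusted p = 0.0939), and those of Ndufa4 and Cox6a1 without P28 and Pl_III (adjusted p = 0.0976 and 0.0603). In adenoma, Ndufa4l2 and Cox6a2 were as dim as in epithelium, at means of 2.94 and 3.55.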

How the data were processed

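RNA (150 ng, whole-transcript amplification, biotin label, 1 colour) was hybridised as the labels' protocols describe. The values deposited were log2 levels, and per the submitters' processing notes the authors used RMA to compute them. No version, array library or detection call was used here. RMA makes arrays alike in distribution and compresses low values. The 16 arrays gave 14 samples of 9 animals after the technical repeats of tumours P21 and P34 were averaged. Each adenoma label adds n=3 without explaining it, and 1 fibroblast monoculture array names Pl_III in its title, which was followed, and Pl_II elsewhere.

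Of 41345 probe sets, 23521 had 1 symbol, 1814 several and 16010 were unnamed here. A gene was read from its brightest probe set and tested where its highest group mean exceeded 2.67, the 30th percentile of probe set means. Subunits encoded in mitochondrial DNA were not analysed here, and Uqcr10, Cox6c, Ndufs6, Ndufb2 and Ndufb4 had only probe sets with several symbols. Differences came from limma 3.58.1 in R 4.3.3 (group means with a shared spread, empirical Bayes, 2-sided, Benjamini-Hochberg over 18095 genes), with functions tested on simulated data.

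Members, lists, alternatives and the naming rule were chosen with earlier results of these data known. The rule took every member called where 10 or fewer were called in a direction and otherwise the 8 largest, always isoform pairs and core subunits, and at most 4 members per other list by p. Ndufs4, Ndufs5, Ndufb3, Cox7b, Uqcrb and other values outside the rule were picked after seeing the data. The labels pair mono- and co-cultures by animal. Deviations from the group mean correlated within an animal at 0.33 (P28), 0.33 (P30), 0.62 (Pl_I), 0.51 (Pl_II) and 0.79 (Pl_III).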

Additional observations from a re-analysis of the deposited data

Results flagged for a closer look

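Of the 59 members, 7 had 1 of the 4 tumours apart from the other 3 by 0.83 to 0.93 of their range. The nominal rate of such gaps is about 1 in 20. The share over all genes was not computed, so the 7 are not read as an excess. Some gaps were small on the log2 scale. Over all probe sets, differences between technical repeats had an SD of 0.42 in P21 and 0.43 in P34. Animal P36 was low for Ndufa7 (6.28, against 6.89 to 6.98 in the others) and Ndufb7 (6.58, against 6.91 to 6.93), and high for the core protein Uqcrc2 (10.46, against 10.16 to 10.20). Animal P34 was low for Ndufa8 (10.47, against 10.56 to 10.57) and Ndufc2 (9.03, against 9.14 to 9.17). Animal P21 was high for Ndufa3 (10.61, against 10.29 to 10.34). Animal P23 was high for Ndufa1 (7.98, against 7.75 to 7.79).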

How the results depend on the processing

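No member changed direction in a comparison that called it under the alternatives run. Members not called did, such as Ndufa4 and Cox4i2 in adenoma against monoculture (-0.17 to 0.04 and -0.06 to 0.26), and so did the median between the tumour pairs (0.04, and -0.02 without P21, with 31 in place of 22 members negative). In co-cultured epithelium, the 4 lower members became 2 with no filter on dim genes, 0 in a fit of the compared groups only, 0 without P28 and Pl_III and 1 to 2 with single samples left out. With the animal as a replicate block there were 4, of which 3 were shared (Ndufa6 joined and Ndufb5 left). In adenoma against co-culture, the 13 lower members became 21 after cyclic loess, 5 without P28 and Pl_III and 7 to 16 with single samples left out; 1 was higher with a trended robust prior and 0 to 1 with single samples left out (Ndufa4, without P23). In adenoma against monoculture, the count of 37 ranged from 28 to 37 with single samples left out. In fibroblasts against epithelium, 1 to 2 members were higher with single samples left out. For the difference of both responses, 1 member was lower with a trended robust prior and 1 with the replicate block. The tumours titled T2 had 0 higher members in a fit of the compared groups only, without P28 and Pl_III, or without any 1 tumour, 3 with a trended robust prior (Cyc1, Ndufa6 and Ndufb9) and 2 from the second adenoma array. With the animal as a random block, the 37 and 13 became 36 (without Ndufs8, adjusted p = 0.0574) and 12 (without Cox6b1, adjusted p = 0.051). With the replicate block, members at an unadjusted p under 0.05 became 6 in place of 3 in co-cultured fibroblasts and 20 in place of 17 for the difference of both responses. Over all genes these counts became 1352 in place of 513 and 3988 in place of 2293. Cyclic loess moved the median of the members in adenoma to -0.63 against monoculture and -0.28 against co-culture, and the median of all genes by less than 0.1. Fits without a sample that leave a group with 1 assume that it varies like the other groups. The causes were not tested. Limits are the 2 epithelial animals, 1 of them against its label, the compression of low values, and probe sets: the dimmer probe sets of Ndufa8 and Ndufa12 differed by -0.76 and -0.49 in adenoma, against -0.09 and -0.12 for the brighter.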

Other observations

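Members read only from probe sets shared with another gene were left out of the counts. The probe set of Uqcr10, a small subunit of complex III, and Gm6293 was at 7.14, 6.87, 7.17 and 7.14 in adenoma and at 7.61 and 7.70 in epithelium monoculture, and at 7.06 and 7.32 in epithelium co-culture. The probe set of Ndufs5 and its pseudogene Ndufs5-ps was at 6.72, 7.13, 6.59 and 7.02 in adenoma and at 7.29 and 7.62 in epithelium monoculture, the opposite direction to the dim probe set of Ndufs5 alone (4.32, 4.02, 4.20 and 4.01 in adenoma, against 3.74 and 3.94). The probe set of Ndufb4, Ndufb4b and Ndufb4c was at 6.15, 6.12 and 6.20 in monocultured fibroblasts and at 6.04 and 5.85 in epithelium, where most members were lower in fibroblasts. The signals of these genes cannot be told apart, and no test was made.

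In the tumours titled T2, 6 of 71 members of the mitochondrial ribosome rose (8.45%) and 0 fell against the other tumours. Over all genes 3.65% rose and 3.49% fell. Mrpl10 (0.72 ± 0.15, adjusted p = 0.0106) and Mrpl13 (0.81 ± 0.19, adjusted p = 0.0206) were among the 6. Tomm22, a receptor of the outer membrane import complex, rose (0.77 ± 0.17, adjusted p = 0.0156). Slc25a4, a carrier that exchanges ADP and ATP, averaged 9.03 in T2 tumours and 10.25 in the others (-1.22 ± 0.23, adjusted p = 0.00658), and 7.21 in epithelium monoculture.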
